A study of Homo sapiens with 5 samples.

Results

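FABP4, PDK4 and ANGPTL4 stood high in PC-3 cells grown as spheroids, and they were described here with 5 related genes of fatty acid handling, FABP5, PLIN2, CPT1A, ACADVL and CD36. These 8 genes were listed because FABP4, PDK4 and ANGPTL4 are high on the spheroid array. Every probe set that carries 1 of these symbols was taken, 20 of 41097 single-symbol probe sets, for 8 of 19775 genes. The values that chose the genes came from the spheroid array, so the spheroid comparison of these genes is a description without a test.

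Messenger RNA was measured on 5 Affymetrix arrays of PC-3, a human prostate cancer cell line from a bone metastasis. An array each held cells labelled shTRIB1-1 and shTRIB1-2, which express different hairpin RNAs against the pseudokinase TRIB1. A further array held cells with a control hairpin against GFP (shGFP), 1 held a spheroid culture and 1 held a flat (2D) culture. The study asked which genes differ in 3D growth and which depend on TRIB1. All 5 samples are 1 cell line with no drug treatment, and the labels give neither separate cultures nor clones. The labels describe growth in dishes for every sample, the spheroid sample included. The 2D, spheroid and shGFP conditions each had 1 array and no replicate.

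A level is the log2 of the deposited RMA intensity, and the probe set with the highest mean level stood for a gene. A gene entered a comparison if it reached a level of 6 on any array compared. That level is not a call of presence, since KLK3, the prostate-specific antigen that PC-3 cells are known not to make, was listed at 6.90 on all 5 arrays. TRIB1 itself was at 11.91 on the array labelled shTRIB1-1 and 11.76 on that labelled shTRIB1-2, against 11.97 on the shGFP array. The hairpin arrays are therefore called by their labels. All 6 PC-3 and epithelial markers, among them KRT8, KRT18 and EPCAM, reached a level of 6. The ratio of 5′ to 3′ actin signal was 0.131 on the spheroid array and 0.184 on the 2D array, and lay between 0.436 and 0.445 on the 3 hairpin arrays. Its part in the differences below was not tested.

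Peroxisome proliferator-activated receptors (PPARs) are nuclear receptors that bind fatty acids and related lipids and act on DNA together with RXR. Their known targets include carriers that move fatty acids in the cytosol (FABP4, FABP5), a coat protein of lipid droplets (PLIN2) and enzymes that burn fatty acids in mitochondria. PDK4 phosphorylates and slows pyruvate dehydrogenase, which turns cells from glucose to fatty acid oxidation. PPARs are not the sole inputs to these genes, since hypoxia, fasting signals and steroid hormones are also known to act on several of them.

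The promoters of PDK4, ANGPTL4 and PLIN2 are shown because these 3 genes were among those with the largest spheroid differences and have a window in the RefSeq table (GRCh38.p14). RefSeq windows matched 6 of the 8 genes by symbol, with 12 windows in all. Each line gives the 250 bases before the annotated start, 5′ to 3′ on the gene's strand. Matches to ACGTG, a form of the hypoxia response element core, are in capitals, and other forms of that core were not searched.
PDK4, chr7:95596517-95596766, minus strand: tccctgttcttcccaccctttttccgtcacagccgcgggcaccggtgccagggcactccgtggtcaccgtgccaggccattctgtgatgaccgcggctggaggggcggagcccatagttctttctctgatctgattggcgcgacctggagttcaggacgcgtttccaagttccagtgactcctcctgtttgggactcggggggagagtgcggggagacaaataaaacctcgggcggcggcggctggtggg
ANGPTL4, chr19:8363905-8364154, plus strand: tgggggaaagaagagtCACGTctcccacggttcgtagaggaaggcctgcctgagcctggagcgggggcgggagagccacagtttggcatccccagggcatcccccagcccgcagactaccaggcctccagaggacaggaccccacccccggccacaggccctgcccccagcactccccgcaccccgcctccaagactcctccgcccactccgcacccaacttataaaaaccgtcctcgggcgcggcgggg
PLIN2, chr9:19127493-19127742, minus strand: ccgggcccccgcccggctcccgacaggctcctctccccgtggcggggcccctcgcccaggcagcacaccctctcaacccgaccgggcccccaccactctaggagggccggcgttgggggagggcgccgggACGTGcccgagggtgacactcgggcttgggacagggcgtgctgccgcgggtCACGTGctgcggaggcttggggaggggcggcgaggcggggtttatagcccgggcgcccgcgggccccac
The PPAR response element in its direct-repeat form, AGGTCANAGGTCA, was searched on both strands, as were its looser form AGGNCANAGGNCA, the half-site AGGTCA that lies inside it, the forkhead site GTAAACA and ACGTG. None of the 12 windows of PDK4, ANGPTL4, PLIN2, CPT1A, ACADVL and CD36 held either repeat, the half-site or the forkhead site. ACGTG had 3 matches in the PLIN2 window, of which 2 overlap on opposite strands, 1 in the ANGPTL4 window, 1 in the second ACADVL window and none in the PDK4 window. Over 34788 distinct windows of this length, 18.5% held ACGTG, 12.0% the half-site, 2.98% the forkhead site, 0.259% the looser repeat and 0.0115% the exact repeat. A match describes these letters in this window and is not a measured binding site.

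Spheroid cells were set against 2D cells to find genes that differ in 3D growth. Of the 8 genes, 7 passed the level filter, and 6 of them were at least 2-fold higher on the spheroid array. Over all genes, 5.05% of 10570 were at least 2-fold higher and 5.23% at least 2-fold lower. The genes were chosen from this array, so nothing is read from that count. The median difference of the 7 genes was 2.22 on the log2 scale (range 0.73 to 5.27), beside -0.0083 for all genes tested. In bulk RNA, more cells that carry a transcript and more of it per cell cannot be told apart. Each of the 7 was highest on the spheroid array of all 5 arrays, as were 24.9% of 10843 genes.

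**Figure D1:**
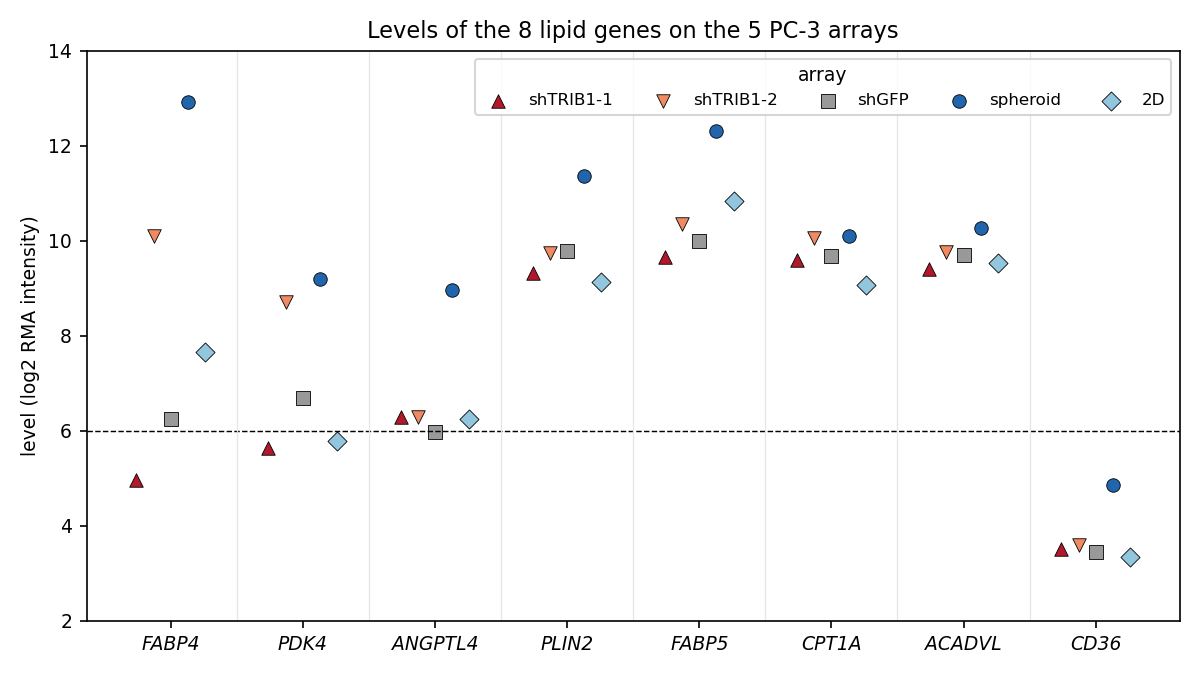
Level (log2 RMA intensity, vertical axis) of each gene (horizontal axis) on the 5 arrays, 1 symbol per array, from the probe set that stands for the gene; the dashed line is the level filter of 6. The spheroid array is highest for every gene shown, FABP4 and PDK4 are spread over the other arrays, and CD36 lies below 6 throughout.

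FABP4, the fatty acid carrier best known from adipocytes and macrophages, differed most. Its level was 12.92 on the spheroid array and 7.65 on the 2D array. That is a difference of 5.27, or 38.5-fold, the second largest of 10570 genes. Its second probe set, at a lower signal, was at 8.34 on the spheroid array and 3.93 on the 2D array, a difference of 4.40. The other arrays were also far apart for this gene, at 4.96 for shTRIB1-1, 10.09 for shTRIB1-2 and 6.24 for shGFP. Over the 4 arrays other than the spheroid one, FABP4 spanned 5.13, close to the size of the spheroid difference itself. The spheroid array stood 2.83 above the next highest array, shTRIB1-2.

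FABP5, the epidermal carrier of the same family, was far above the level filter on every array. It was at 12.31 on the spheroid array and 10.83 on the 2D array, a difference of 1.48 (2.78-fold). On the other arrays it was at 9.65 for shTRIB1-1, 10.34 for shTRIB1-2 and 9.99 for shGFP, so the spheroid array stood above all of them. It has 1 probe set, of the kind that can match several transcripts. Of the 10 fatty acid binding proteins listed, 8 had a probe set, and the 6 others stayed below 6 on every array.

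PDK4, the inhibitory kinase of pyruvate dehydrogenase, was at 9.19 on the spheroid array and 5.79 on the 2D array. The difference was 3.40 (10.5-fold), the 21st largest. On the shTRIB1-2 array PDK4 was at 8.71, only 0.48 below the spheroid array, while shTRIB1-1 was at 5.64 and shGFP at 6.69. Its other 2 probe sets had weak signals and differed by 1.31 and 0.57. As the median over its 3 probe sets the difference was 1.31.

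ANGPTL4, a secreted inhibitor of lipoprotein lipase, was near the level filter on 4 arrays and well above it on the spheroid array. It was at 8.97 on the spheroid array and 6.25 on the 2D array, a difference of 2.72 (6.58-fold), the 43rd largest. The arrays labelled shTRIB1-1 and shTRIB1-2 were both at 6.29 and shGFP was at 5.96, so the 4 other arrays spanned 0.33. The second ANGPTL4 probe set differed by 2.09 in the same direction, at 7.53 on the spheroid array and 5.45 on the 2D array. Of 12 angiopoietin-like and lipase genes listed, 8 had a probe set and ANGPTL4 and the lipase chaperone LMF1 passed the filter, LMF1 with a difference of 0.013. The lipase LPL itself stayed below 6.

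PLIN2, which coats lipid droplets, was at 11.36 on the spheroid array and 9.14 on the 2D array. The difference was 2.22 (4.65-fold), against a span of 0.63 over the 4 other arrays, with shTRIB1-1 at 9.33, shTRIB1-2 at 9.74 and shGFP at 9.77. A second PLIN2 probe set stayed near 3.7 on all arrays and gave -0.034. The median over both probe sets was therefore 1.09.

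The enzymes of fatty acid oxidation differed less. CPT1A, which loads fatty acids onto carnitine for entry into mitochondria, was at 10.10 on the spheroid array and 9.07 on the 2D array, a difference of 1.04. Its level on shTRIB1-2 was 10.07, almost that of the spheroid array, with 9.60 on shTRIB1-1 and 9.68 on shGFP. CPT1A differed by 0.73, below 2-fold, when the 2D and shGFP values were averaged as the comparator. The 4 CPT1A probe sets gave differences between 0.13 and 1.21, and their median level differed by 0.94. ACADVL, which starts the oxidation of very long chains, was at 10.27 on the spheroid array and 9.54 on the 2D array, a difference of 0.73 and the only 1 of the 7 below 2-fold. It was at 9.41 on shTRIB1-1, 9.77 on shTRIB1-2 and 9.71 on shGFP.

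CD36, a membrane receptor that takes up fatty acids, lay below a level of 6 on all 5 probe sets and all 5 arrays and entered no comparison. Its best probe set was at 4.86 on the spheroid array and 3.35 on the 2D array. Of its 5 probe sets, 3 differed by 1.29 to 1.79 and the other 2 by 0.056 and 0. The sizes of these differences rest on signals near background.

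**Figure D2:**
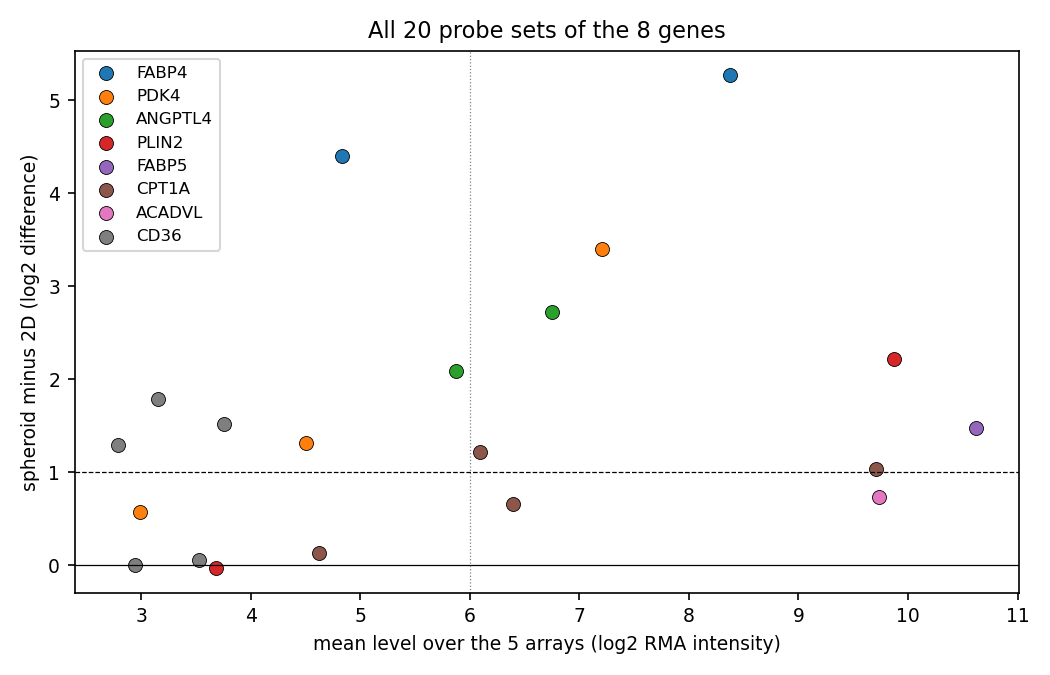
Spheroid minus 2D (log2 difference, vertical axis) against the mean level over the 5 arrays (horizontal axis) for all 20 probe sets, coloured by gene; the dashed line marks 2-fold and the dotted line the level of 6. Both FABP4 and both ANGPTL4 probe sets lie above 2, whereas the weaker probe sets of PDK4 and PLIN2, and 2 of the 3 of CPT1A, lie lower than the probe set that stands for the gene.

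FABP4 also marks cells other than tumour cells, so marker levels were read beside it. The macrophage markers with a probe set (7 of 8 listed, among them CD14, CD163 and CSF1R) all stayed below 6, and their summed level was 7.22 on the spheroid array and 7.20 on the 2D array. Of 6 adipocyte markers, ADIPOQ, LEP and LIPE stayed below 6. The lipid droplet proteins PLIN1 and CIDEC, also in this list, were higher on the spheroid array, PLIN1 by 1.28 and CIDEC by 0.73 (6.97 on the spheroid array and 6.24 on the 2D array). The summed adipocyte level was 10.43 on the spheroid array and 10.42 on the 2D array, a sum made up mostly of ADIPOR2, at 10.14 on the spheroid array and 10.25 on the 2D array. The part of these markers in the FABP4 difference was not tested. Of 6 endothelial markers only PECAM1 passed a level of 6, at 9.53 on the spheroid array and 7.57 on the 2D array. VWF, CDH5, KDR, TEK and CLDN5 stayed below 6, and their spheroid minus 2D differences ran from -0.13 (VWF) to 0.12 (KDR). The summed endothelial level, made up mostly of PECAM1, was 9.73 on the spheroid array and 8.25 on the 2D array. Its part in the FABP4 difference was not tested.

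The PPAR receptors did not differ alike between spheroid and 2D. PPARA, which drives fatty acid oxidation in liver and muscle, was at 7.85 on the spheroid array and 6.12 on the 2D array, a difference of 1.74. That value is from 1 of 9 PPARA probe sets, and their median differed by 0.68. PPARG, the receptor of adipocytes, was lower on the spheroid array, at 10.66 against 11.48 on the 2D array. PPARD differed by 0.54 and the partner RXRA by 0.14, and both signs turned with the median over probe sets (-0.27 and -0.12). Among the 13 receptors, partners and cofactors above the filter, PPARA was the 1 gene at least 2-fold higher and none was 2-fold lower, with a median of 0.14. That median turned to -0.20 with the median over probe sets and to -0.08 at a level filter of 8.

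Genes of the lipid droplet were higher more often than lower. For this list and those below, the shares over all genes were 5.05% at least 2-fold higher and 5.23% at least 2-fold lower. The median of the 14 droplet genes that passed the filter was 0.57. Of these 14, 6 were at least 2-fold higher on the spheroid array and 0 were 2-fold lower. Besides PLIN2, these were DGAT2, which makes triglyceride (1.69), the monoglyceride lipase MGLL (1.48), the coat proteins PLIN4 (1.30) and PLIN1 (1.28), and G0S2, an inhibitor of triglyceride breakdown (1.20). PLIN1 was at 6.44 on the spheroid array and 5.15 on the 2D array, so it passed the filter through the spheroid array alone. Its difference rests on a weak signal and was 0.99 with 16 added to each intensity. PLIN3 (-0.49) and ABHD5, an activator of triglyceride breakdown (-0.91), were among the 4 below 0. Without PLIN2, which is among the 8 genes listed for the spheroid array, 5 of 13 were at least 2-fold higher and 0 were 2-fold lower. The list median was 0.41 without PLIN2 and 0.02 with no level filter. The count of droplet genes at least 2-fold higher ran from 3 to 6 over the alternatives tried.

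Uptake and activation genes were mixed. Of 8 above the filter, 2 were at least 2-fold higher and 0 lower, with a median of 0.21. The transport protein and acyl-CoA synthetase SLC27A2 differed by 1.73, at 8.25 on the spheroid array and 6.52 on the 2D array. The acyl-CoA synthetase ACSL5 differed by 1.68, at 6.82 on the spheroid array and 5.14 on the 2D array. ACSL5 thus passed the filter through the spheroid array alone. The count of uptake and activation genes at least 2-fold higher ran from 1 to 3 over the alternatives tried.

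The genes of mitochondrial oxidation lay on both sides of 0. Without CPT1A and ACADVL, 7 lay above 0 and 12 below. Of 21 genes of the carnitine shuttle and beta-oxidation, CPT1A alone was 2-fold higher and 2 were 2-fold lower. Of the 21, 9 lay above 0 and 12 below, with a median of -0.22. The lower pair were HADH (-1.09) and ECHS1 (-1.02), enzymes of the middle steps of the cycle. The median was 0.13 without probe sets that can match several transcripts. Among 10 peroxisomal genes 0 were 2-fold higher and 1 lower, the oxidase ACOX2 (-1.04), with a median of -0.057. ACOX2 was at 8.71 on the spheroid array and 9.75 on the 2D array, but at 7.40 on shGFP, and its difference was 0.13 when the 2D and shGFP values were averaged as the comparator.

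Around pyruvate dehydrogenase the kinases parted. PDK1, the hypoxia-responsive kinase, was lower on the spheroid array (8.06, against 9.07 on the 2D array, a difference of -1.01), and PDK2 and PDK3 differed by -0.42 and 0.06. PDP1, the phosphatase that opposes the kinases, was at 10.52 on the spheroid array and 8.96 on the 2D array, a difference of 1.56. MPC1, a subunit of the mitochondrial pyruvate carrier, differed by 1.34 (0.83 as the median over its probe sets). Of 12 genes in the list 3 were 2-fold higher, PDK4 included, 1 was 2-fold lower and 8 lay within 2-fold, with a median of -0.28. With 2D and shGFP averaged as the comparator, PDK1 (-0.88), HADH (-0.93), ECHS1 (-0.93) and UCP2 (-0.55) lay within 2-fold, as did MPC1 (0.997), among the higher genes. With 16 added to each intensity PDK1 differed by -0.97.

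Of 34 further known PPAR targets, 29 had a probe set and 17 passed the filter. On the spheroid array 4 were at least 2-fold higher and 1 was 2-fold lower, 11 lay above 0 and 5 below, and the median was 0.39. The 4 were SLC27A2, ACSL5, PLIN4 and PLIN1, which also stand in the lists above. The lower gene was UCP2, a mitochondrial carrier, at 6.90 on the spheroid array and 8.07 on the 2D array (-1.16, while the median level of its probe sets differed by -0.59). FABP3, the carrier of heart muscle, stayed below 6, at 4.23 on both the spheroid and the 2D array. With no level filter the list median was 0.015. Over the alternatives tried, the count at least 2-fold higher ran from 1 to 5 and the count 2-fold lower from 0 to 1. ACSL5 (5.14 on the 2D array) and PLIN1 (5.15 on the 2D array) passed the filter through the spheroid array alone.

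**Figure D3:**
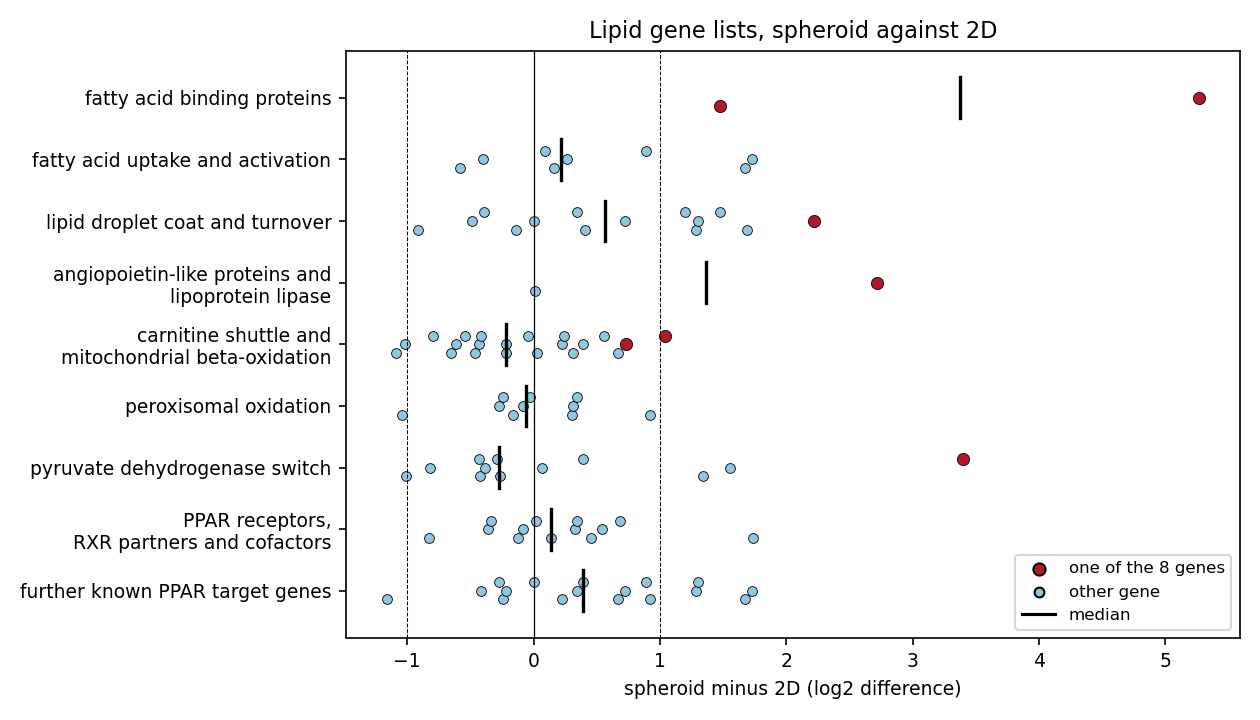
Spheroid minus 2D (log2 difference, horizontal axis) of every gene above the level filter in the 9 lists (rows), with the genes described here in red, other genes in blue and the list median as a black bar; dashed lines mark 2-fold. The red genes lie at the upper end of their lists, and the oxidation lists have medians slightly below 0. Nothing is read from the place of the red genes, since they were chosen from the spheroid array.

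Dependence on TRIB1 was examined by setting each array labelled shTRIB1 against the shGFP array. The rule that chose the 8 genes names none of these 3 arrays. FABP4 and PDK4 differed in opposite directions with the 2 hairpins, and the other 5 genes that passed the filter differed by less than 2-fold on either array. No member was at least 2-fold different in the same direction on both arrays, where 0.361% of 10522 genes were higher and 0.0855% lower on both. Limma, over all 10522 genes with Benjamini-Hochberg adjustment, called 0 genes, members included (0.0%). At an unadjusted p under 0.05 limma held 356 genes (3.38%), and ANGPTL4 was the 1 member among them. The spread in that fit comes from the 2 hairpin arrays alone (1 residual degree of freedom).

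FABP4 was at 4.96 on the array labelled shTRIB1-1 and 10.09 on that labelled shTRIB1-2, against 6.24 on the shGFP array. The shGFP array thus lay between the hairpin arrays. The differences were -1.27 and 3.85, a mean of 1.29 ± 3.63 (SD, n = 2), which limma did not call (adjusted p = 0.974). On the array labelled shTRIB1-1 FABP4 lay below 6, so the size of the lower difference rests on a signal near background. The weaker FABP4 probe set gave 0.23 and 1.48, so the lower level with shTRIB1-1 was not seen there, at a level of 3.62.

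PDK4 followed the same order, with 5.64 on the array labelled shTRIB1-1 and 8.71 on that labelled shTRIB1-2, against 6.69 on the shGFP array. The differences were -1.05 and 2.01, a mean of 0.48 ± 2.17 (SD, n = 2; limma, adjusted p = 0.984). On the array labelled shTRIB1-1 PDK4 lay below 6, so the size of its lower difference rests on a signal near background. The other 2 PDK4 probe sets, both weak, gave -0.15 and 0.23, and -0.096 and -0.093. A 2-fold difference in opposite directions was found in 18 of 10522 genes (0.171%), and FABP4 and PDK4 were 2 of the 18. Both counts rest on the value of the single shGFP array. With shGFP and 2D averaged as the comparator, PDK4 on shTRIB1-1 differed by -0.60, and 1 member stayed in that class. With 16 added to each intensity no member stayed in it, as FABP4 on shTRIB1-1 then differed by -0.95, nor with each gene taken as the median of its probe sets.

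Set directly against each other, the array labelled shTRIB1-2 was 5.13 above that labelled shTRIB1-1 for FABP4 (35.0-fold), the second largest difference of 10412 genes. The weaker FABP4 probe set differed by 1.24 (2.37-fold) between these arrays. For PDK4 the array labelled shTRIB1-2 was 3.07 above (8.37-fold), the 8th largest. The other 2 PDK4 probe sets, both with weak signals, differed by 0.38 and 0.0034. Over all genes 3.07% were at least 2-fold higher on shTRIB1-2 and 2.04% were 2-fold lower, without a test because each hairpin has 1 array. FABP5 differed by 0.70 between them, CPT1A by 0.46, PLIN2 by 0.41 and ACADVL by 0.36, each higher with shTRIB1-2. ANGPTL4 differed by 0.

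**Figure D4:**
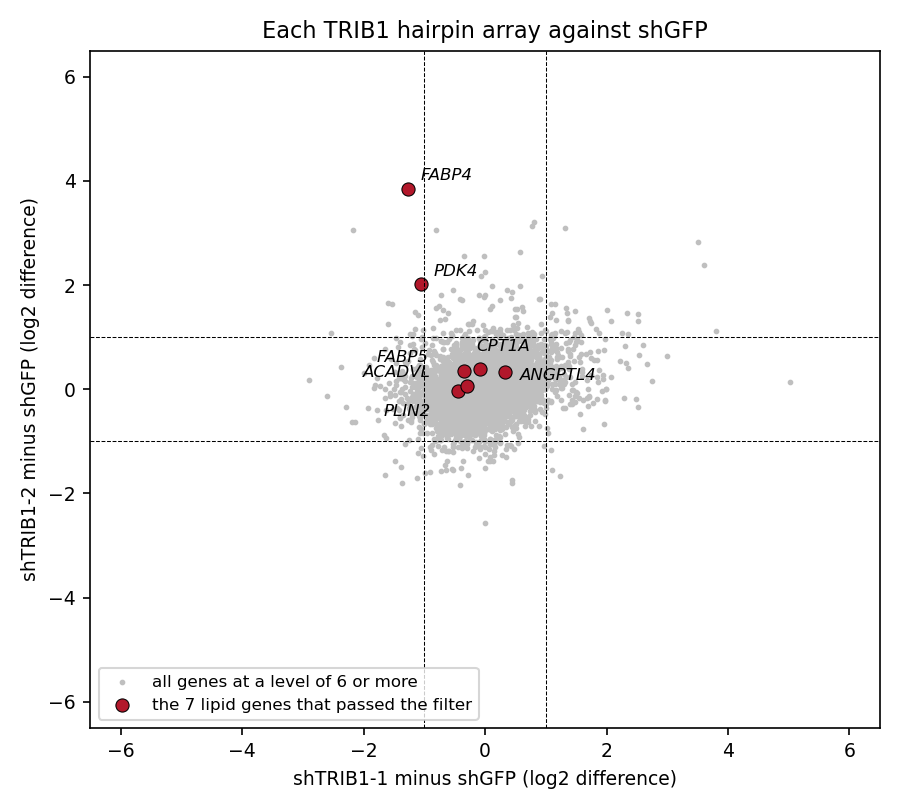
Difference from shGFP on the array labelled shTRIB1-1 (horizontal axis, log2) and on that labelled shTRIB1-2 (vertical axis, log2) for genes at a level of 6 or more (grey) and the 7 lipid genes that passed this filter (red); dashed lines mark 2-fold. FABP4 and PDK4 lie at the upper left, away from the main cloud, and the other 5 lie within it.

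ANGPTL4 was at 6.29 on both arrays labelled shTRIB1, against 5.96 on the shGFP array. The difference was 0.33 with each hairpin (limma, unadjusted p = 0.0462, adjusted p = 0.951). The values of the hairpin arrays are identical for both ANGPTL4 probe sets, as for 11.3% of all genes, so the SD of 0 does not measure replicate spread. FABP5 differed by -0.34 and 0.35, a mean of 0.0066 ± 0.49 (SD, n = 2). PLIN2 differed by -0.44 and -0.033, CPT1A by -0.080 and 0.38, and ACADVL by -0.30 and 0.067. Limma gave adjusted p-values of 0.958 to 1 for these 4 genes.

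In the lists of lipid genes no gene was 2-fold higher or 2-fold lower on both arrays labelled shTRIB1, and limma called 0 of them. Among the receptors PPARG was at 10.78 on shTRIB1-1 and 11.62 on shTRIB1-2, against 11.42 on shGFP. PPARA was at 6.79 and 7.14 on these hairpin arrays and at 7.14 on shGFP. The medians of the mean hairpin differences lay between -0.10 and 0.060 in the 7 lists with 7 or more genes, beside -0.027 for all genes.

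FABP4 also differed between the shGFP and 2D arrays, whose actin ratios were 0.436 on shGFP and 0.184 on 2D. The part of that ratio was not tested. FABP4 was at 6.24 on the shGFP array and 7.65 on the 2D array, a difference of -1.41, and FABP5 differed by -0.84. PDK4 differed by 0.90, PLIN2 by 0.63 and CPT1A by 0.62 in the other direction. FABP4 was the 1 member 2-fold lower, and 0 were 2-fold higher, where 2.11% of 10450 genes were lower and 2.13% higher.

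The genes nearest to FABP4, PDK4 and ANGPTL4 in pattern were found by the Euclidean distance over the 5 arrays, after each gene was centred on its own mean, among 10842 genes. ANGPTL4 had close neighbours, with LINC00520 at 0.39 and the steroid and prostaglandin reductase AKR1C3 at 0.55. TRPC5OS and LURAP1L-AS1 completed its 4. AKR1C3 was at 11.57 on the spheroid array and 8.56 on the 2D array. Nearest to PDK4 were IFITM1, an interferon-induced membrane protein (0.97), LOC105375172 (0.99), the thyroid hormone receptor THRB (1.03) and HPGD, which breaks down prostaglandins (1.16). THRB was at 7.15 on shTRIB1-1, 9.32 on shTRIB1-2, 8.18 on shGFP, 9.87 on the spheroid array and 7.51 on the 2D array, the same order of hairpin arrays as PDK4.

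FABP4 had no gene within 3 of it by the Euclidean distance, which was not scaled for the size of a gene's differences. The nearest were SPARC, a matricellular glycoprotein (3.32), the fibrinogen chain gene FGG (3.34), LRRC31 (3.56) and IFITM1 (3.56). PDK4 was the 7th nearest at 3.63. The Pearson correlation with FABP4 over the 5 arrays was 0.98 for SPARC, 0.91 for FGG, 0.88 for LRRC31 and 0.96 for IFITM1. With ANGPTL4 it was 0.98 to 0.99 for the 4 genes nearest to that gene. SPARC was at 7.42 on shTRIB1-1, 9.29 on shTRIB1-2, 7.31 on shGFP, 11.14 on the spheroid array and 8.50 on the 2D array. From ANGPTL4, FABP5 and PLIN2 lay at 1.05 and 1.09 (53rd and 61st nearest), nearer than PDK4 at 2.46 or FABP4 at 4.55. For FABP4 and PDK4 the shTRIB1-2 array stood between the spheroid array and the rest, whereas for ANGPTL4 and PLIN2 the spheroid array stood alone.

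**Figure D5:**
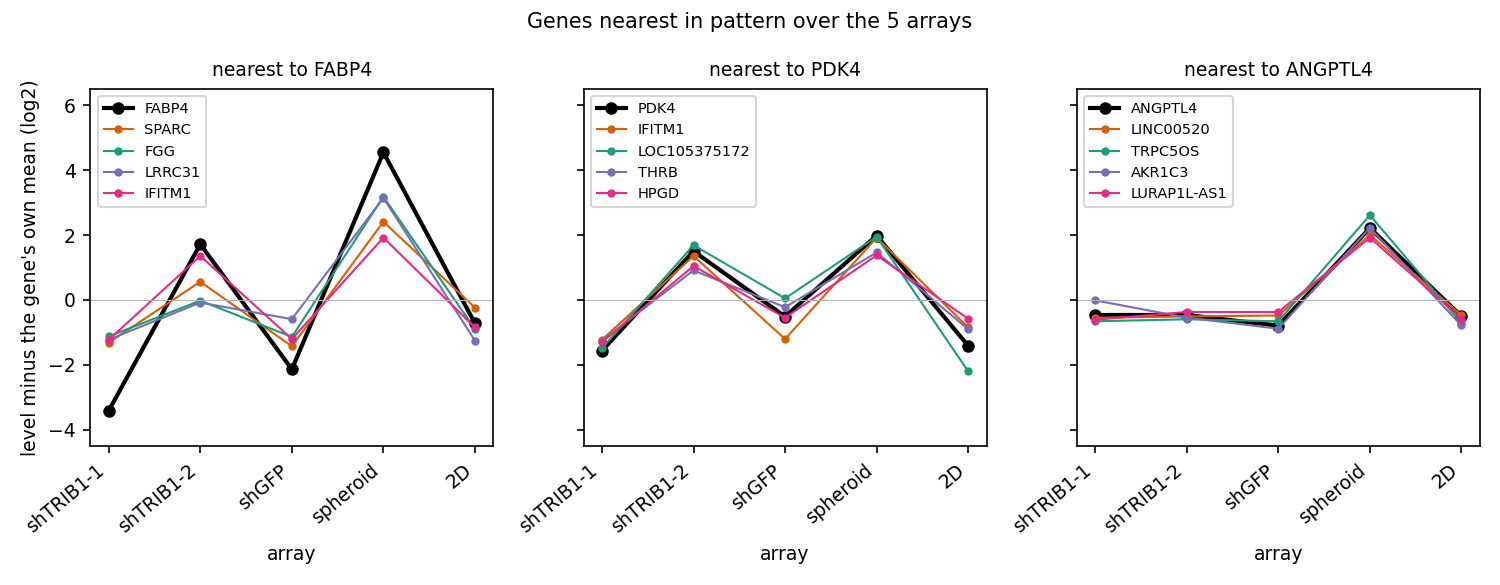
Level minus the gene's own mean (log2, vertical axis) on the 5 arrays (horizontal axis) for FABP4, PDK4 and ANGPTL4 (black, 1 panel each) and their 4 nearest genes (colours); lines join the values of a gene and imply no order. PDK4 and its neighbours have peaks on shTRIB1-2 and spheroid, whereas ANGPTL4 and its neighbours have 1 peak, on the spheroid array.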

How the data were processed

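The authors deposited 1 RMA intensity per probe set and array, per the submitters' processing notes. The values run from 3.59 to 20253 and were therefore taken to be linear. RMA corrects background, equalises the arrays by quantiles and summarises the probes of a set. The sources used here name neither its version nor the chip definition. Quantile normalization hides a change shared by most genes. Arrays have no sequencing depth, and their number limits the precision.

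Log2 was taken with no pseudocount. Symbols came from the platform annotation (41097 probe sets with 1 symbol, 1801 with several, 11777 with none), and 41043 of the single-symbol probe sets matched the RefSeq table of GRCh38.p14 by gene identifier. The probe set highest in mean level stood for its gene, and a level of 6 on any compared array was required. Spheroid against 2D has no test. The arrays labelled shTRIB1 were compared with shGFP by limma 3.58.1 (intensity trend, Benjamini-Hochberg at 0.05). Its code was run on simulated data with planted differences, which does not show its power in these data. With 1 residual degree of freedom, a lack of calls does not show that genes are unchanged. P-values measure only the spread between these arrays, which may be technical.

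The 8 genes, the 9 lists (138 genes, 118 with a probe set) and the tests were chosen with earlier results of these data known. Named from the lists were genes at least 2-fold different, at most 4 per list and direction, the receptors PPARA, PPARD, PPARG and RXRA, and the 4 nearest genes in pattern. Beyond this rule some other list genes were named after their values were seen. Motifs were counted in RefSeq promoter windows. The alternatives changed the probe set rule, level filter, pseudocount, scaling, limma settings, the array compared against and the hairpins included.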

Additional observations from a re-analysis of the deposited data

Results flagged for a closer look

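FABP4 and PDK4 are listed here because the arrays labelled shTRIB1-1 and shTRIB1-2 moved in opposite directions from the shGFP array. For FABP4 the array labelled shTRIB1-2 was 5.13 above that labelled shTRIB1-1 on the log2 scale. For PDK4 it was 3.07 above. Each hairpin has 1 array, so the difference between the hairpins was not tested. TRIB1 was at 11.76 on the array labelled shTRIB1-2 and 11.91 on that labelled shTRIB1-1.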

How the results depend on the processing

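Across the alternatives tried, the count of the 8 genes 2-fold higher on the spheroid array ran from 4 to 7 beside 6, and 0 were 2-fold lower in all. The number of them tested changed too. The count was 4 of 6 with the median over probe sets and 4 of 5 without probe sets that can match several transcripts. With no level filter it was 7 of 8. Over all genes the count 2-fold higher ran from 391 to 620 beside 534. The median spheroid difference of 2.22 was 1.28 with a gene taken as its probe sets' median, 1.87 without the level filter and 1.90 with 2D and shGFP averaged as the comparator. ACOX2 turned to 0.13 with that average. The median hairpin difference of 0.15 was 0.0066 with the median over probe sets and ran from -0.34 to 0.35 when 1 hairpin array was left out (-0.34 without shTRIB1-2). With either hairpin left out, only the array that was kept had to differ 2-fold, a looser rule. FABP4 and PDK4 then met it each time, against 0 members on both arrays. Over all genes, 138 were higher and 85 lower without shTRIB1-1. Without shTRIB1-2, 209 were higher and 187 lower. The FABP4 difference of 1.29 was 3.85 without shTRIB1-1 and turned to -1.27 without shTRIB1-2. Limma called 0 members in every setting it was run in, with a smallest adjusted p over all genes of 0.557 to 0.999. It was not run with 1 hairpin array, which leaves no residual degree of freedom. The count of members that differed 2-fold in opposite directions, a result added after the data were seen, was 2, but 0 with 16 added before log2, 0 with the median over probe sets and 1 with the averaged comparator. The hairpin counts over all genes moved too, from 38 higher and 9 lower on both arrays to 20 and 4 with the median over probe sets, 23 and 6 with 16 added or a level filter of 8, and 82 and 32 with the averaged comparator. Genes with an unadjusted limma p under 0.05 ranged from 182 to 1616 beside 356. Of 62 values that answer a comparison under an alternative, 51 were classed as unmoved and 11 as moved. The 51 include the spheroid counts of 4 and 5 beside 6, and counts that were 0 in every setting. No paired analysis was run because the labels pair no arrays. Signals near background limit the sizes for CD36, for PDK4 in 2D and on shTRIB1-1, and for FABP4 on shTRIB1-1.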
